A study of Homo sapiens with 6 samples.

Results

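The 4 mature arms of the miR-33 family, hsa-miR-33a-5p, hsa-miR-33a-3p, hsa-miR-33b-5p and hsa-miR-33b-3p, were taken by name from the 2565 miRNA probes of an array, on which each of them has 1 spot. The arrays held total RNA of Panc-1, an established human pancreatic ductal adenocarcinoma line, which was the same in both groups. Control cells received TGF-β at 0 ng/mL and treated cells received TGF-β at 10 ng/mL, a secreted cytokine used in the study to induce epithelial–mesenchymal transition, and both were kept for 72 h. Each group had 3 arrays, and the labels do not say whether these came from separate cultures, so the p-values measure the spread between the arrays, which may be technical. The names of the scanner files place the control group on 1 slide and the TGF-β group on a different one, although neither the labels nor the file headers name a slide. If this is so, slide and treatment cannot be told apart.

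miR-33a and miR-33b are processed from transcripts of the genes that encode the sterol regulatory element-binding proteins. SREBF2 encodes the factor that chiefly drives genes of cholesterol synthesis and uptake, and SREBF1 encodes the factor best known for fatty acid synthesis. The 5p arms are the guide strands, and are known for repressing ABCA1, the transporter that exports cholesterol from cells, together with enzymes of fatty acid oxidation. The 3p arms are the passenger strands, which are also loaded to some extent. Rodents lack miR-33b, so both genes together are a feature of primates and some other mammals.

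The mature sequences are shown because the family is defined by them. They were read from RefSeq on GRCh38.p14, and capitals mark the seed, bases 2 to 8, through which a miRNA chiefly recognizes its targets.
miR-33a-5p: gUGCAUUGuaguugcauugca
miR-33b-5p: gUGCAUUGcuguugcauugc
miR-33a-3p: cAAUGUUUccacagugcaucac
miR-33b-3p: cAGUGCCUcggcagugcagccc
The 5p arms had the same seed, and 18 of 20 compared bases were identical. Counted from 1 at the 5′ end and with the base of miR-33a first, the differences were U9C and A10U, both just behind the seed. The seed heptamer occurred again at bases 13 to 19 of both 5p arms. Of the 2253 array miRNAs matched to RefSeq, 11 (0.49%), these arms among them, had their own seed, whichever it was, again at a later position. No other matched miRNA of the array had the seed of the 5p arms or that of miR-33a-3p. The 3p arms differed at 7 of 22 bases, of which 3 were in the seed (A3G, U6C and U7C), so that they belong to different seed groups. GC content was 42.9% in miR-33a-5p, 50% in miR-33b-5p, 45.5% in miR-33a-3p and 72.7% in miR-33b-3p.

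The hairpins show where the arms lie, and here capitals mark the mature arms, the 5p arm first.
MIR33A: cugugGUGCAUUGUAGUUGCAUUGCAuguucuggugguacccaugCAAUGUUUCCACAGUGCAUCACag
MIR33B: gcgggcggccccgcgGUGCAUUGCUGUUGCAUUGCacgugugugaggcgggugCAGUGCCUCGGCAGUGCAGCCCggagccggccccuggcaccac
MIR33A lies at chr22:41900944-41901012 on the plus strand, inside SREBF2 (chr22:41833105-41907305) and on the same strand as it, 67839 bp from the start of the host gene. MIR33B lies at chr17:17813836-17813931 on the minus strand, inside SREBF1 (chr17:17811334-17836986) and on the same strand as it, 23055 bp from the start of the host gene. Both are commonly described as intronic, but the table used gives no exons. A further miRNA gene, MIR6777, lies 290 bp beyond MIR33B on the same strand of SREBF1.

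The signals were first set against the blank spots. Blank spots averaged 18.2 to 21.3 intensity units per array, and a miRNA was called detected on an array when its signal exceeded the blank mean of that array by 2 SD, which put the limits at 19.5 to 22.8 units. Mean and SD were taken after 5% of the blank spots were trimmed at each end. On every array the highest blank spot kept, at 19.7 to 23.0 units, lay above the limit. More than 5% of the blank spots thus also passed it. Between 59.7% and 69.7% of the miRNAs were detected per array. The array with the highest share was TGF-β replicate 2. Of markers of other cells, miR-217 of acinar cells was detected on 0 of 6 arrays miR-375 of islet cells on 1 and miR-216a-5p of acinar cells on 2, both TGF-β arrays, whereas miR-21-5p, miR-31-5p and miR-196a-5p, which are abundant in pancreatic carcinoma, were detected on all 6. The epithelial miR-141-3p was detected on 0 arrays and miR-200c-3p on 1, whereas hsa-miR-203a-3p was detected on all 6 (log2 fold change 0.27, adjusted p = 0.847 from limma). This arm was chosen after its values were seen, since the marker list named miR-203a without an arm. The liver miRNA miR-122-5p was detected on 3. Of the 5 miRNAs of blood cells, miR-486-5p and miR-142-3p were detected on all 6 arrays, miR-451a on 5, miR-223-3p on 4 and miR-144-3p on 3. Of the tested markers on these lists, 4 of blood and 3 of carcinoma and epithelial cells, miR-31-5p (log2 fold change 0.33, limma adjusted p = 0.0515), miR-196a-5p (-0.16, limma adjusted p = 0.291) and the blood marker miR-486-5p (-0.41, limma adjusted p = 0.217) had groups that did not overlap, as had 18.9% of all tested miRNAs. No tested marker passed the adjusted threshold of 0.05, which 3.98% of all tested miRNAs passed, and the part of these markers in the results was not tested.

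miR-33a-5p, the guide strand from SREBF2, was detected on all 6 arrays. Its signals were 23.6, 26.3 and 36.3 intensity units in control replicates 1, 2 and 3, and 31.6, 31.4 and 29.5 units in TGF-β replicates 1, 2 and 3. These were 8.13, 11.5 and 19.5 SDs of the blank spots above the blank mean in controls, and 18.6, 24.0 and 12.7 SDs with TGF-β. Local background around the spot, which did not enter the limit, was 23.5 units on control replicate 1, nearly the signal. On the other arrays it was 17.7 to 27.7 units and below the signal. Control replicate 3 gave the highest signal of the 6 arrays and control replicates 1 and 2 the lowest, so that the groups overlapped.

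miR-33a-3p, the passenger strand of the same hairpin, was also detected on all 6 arrays. Its signals were 32.0, 37.2 and 42.9 units in controls and 36.5, 40.5 and 37.7 units with TGF-β, between 21.0 and 41.1 SDs above the blank mean. In scanner signal the TGF-β arrays lay within the range of the control arrays, whereas in SDs above the blank mean TGF-β replicate 2 was above every control array, and the groups overlapped on both scales. The signal of this probe and that of miR-33a-5p cannot be compared as amounts of RNA, because each probe binds its target with its own strength.

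miR-33b-5p, the guide strand from SREBF1, was close to the blank spots on every array. Its signals were 18.1, 20.8 and 20.6 units in controls and 21.0, 19.9 and 22.1 units with TGF-β, at -0.24, 2.77 and -0.87 SDs from the blank mean in the former and 2.47, 2.08 and 1.85 SDs in the latter. It passed the detection limit on 1 of the control arrays and on 2 of the TGF-β arrays, and with a limit of 3 SD it was detected on 0 of 6. Whether miR-33b-5p differed between the groups was not detectable at this signal. The files do not give the specificity of the probes, and whether the probe takes up miR-33a-5p, which differs at 2 bases, was not tested.

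miR-33b-3p, the passenger strand from SREBF1, was detected on all 6 arrays at a low signal. It gave 21.0, 22.9 and 26.8 units in controls and 21.3, 21.8 and 23.9 units with TGF-β, which were 4.23, 6.01 and 7.12 SDs above the blank mean and 2.90, 5.67 and 4.43 SDs above it. The scanner signals of the groups overlapped. On control replicate 1 the local background of the spot, 22.9 units, was above its signal. On the other arrays it was 14.8 to 20.2 units and below the signal. At MIR33B, the passenger strand thus passed the limit of 2 SD on every array and the guide strand on 3 of 6, and with 3 SD these numbers were 5 and 0.

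**Figure D1:**
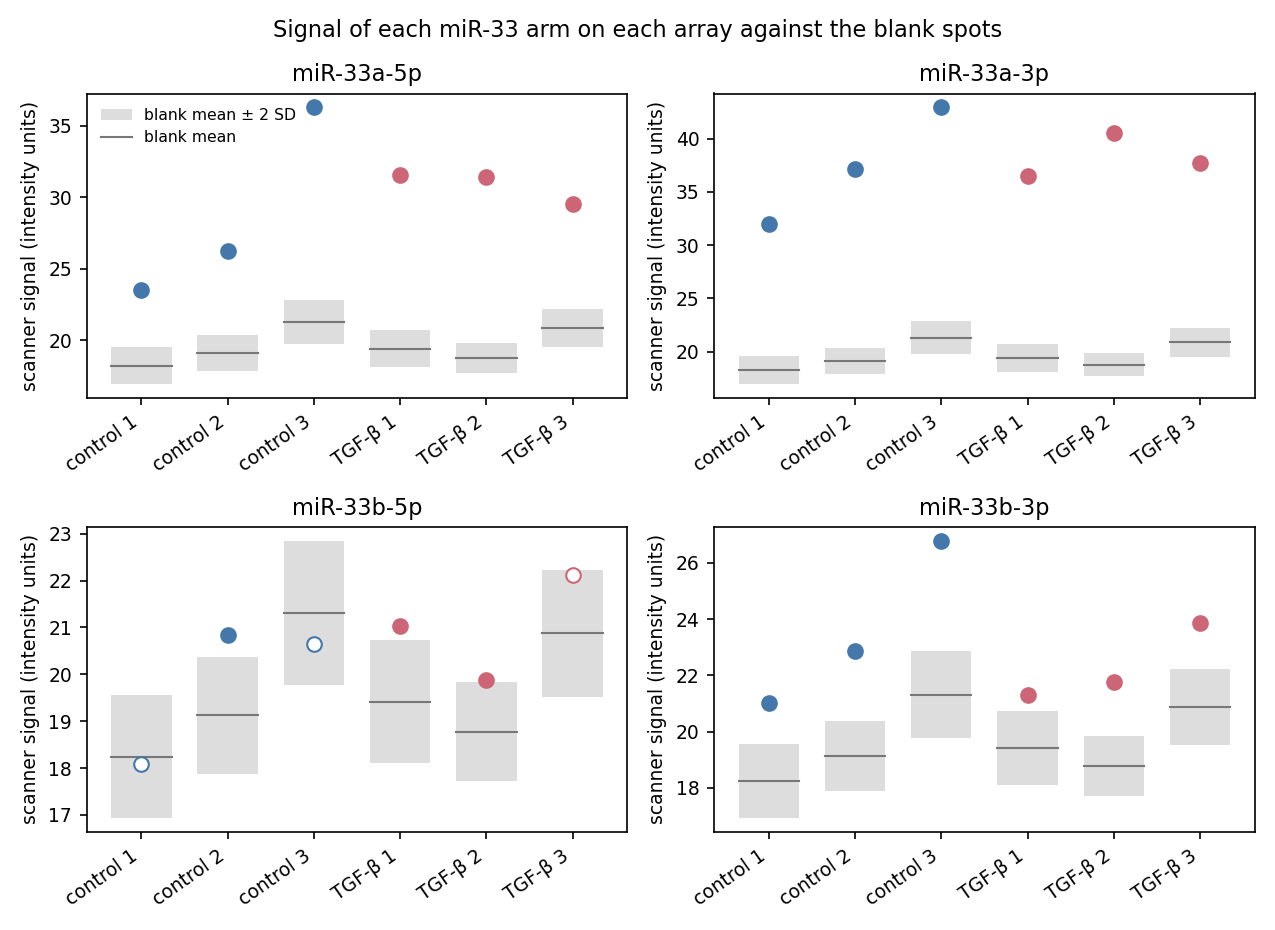
Scanner signal in intensity units of the 4 miR-33 arms on each of the 6 arrays (blue, control; red, TGF-β; open circles, not detected), with the blank mean of the array (line) and 2 SD on either side of it (grey box). Each panel has its own axis, which does not start at 0. miR-33a-5p and miR-33a-3p lie clear of the boxes on every array, miR-33b-3p lies above them by little, and miR-33b-5p lies inside or at the edge.

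To compare TGF-β-treated with control cells, the blank mean was subtracted, the miRNA probes were quantile normalized, and log2 values were tested with limma over 1457 miRNAs, those detected on all arrays of either group. Of the 4 arms, 3 passed this filter, each through both groups, and miR-33b-5p did not. In limma 0 of the 3 had an adjusted p under 0.05 and 1, miR-33b-3p, had an unadjusted p under 0.05, and 0 passed the methods' t-test after adjustment. Of the 1457 miRNAs 3.98% passed the adjusted threshold in limma, 2.61% with TGF-β higher and 1.37% with TGF-β lower, and 13.7% the unadjusted one. The methods' t-test called 17 of 1455 miRNAs after adjustment. Counts of 0 or 1 among 3 arms are thus not a result about the family.

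The log2 fold change of miR-33a-5p was 0.40 (95% interval -0.19 to 0.99, standard error 0.27, adjusted p = 0.566 from limma), with normalized log2 values of 3.06 ± 0.58 (SD, n = 3) in controls and 3.46 ± 0.32 (SD, n = 3) with TGF-β. As a fold this was 1.32, with an interval of 0.875 to 1.98. The difference was smaller than the SD of the control arrays, and an exact permutation test gave p = 0.3 (2-sided), where 0.1 is the smallest value that 3 arrays against 3 allow. The arm varied more within the groups than most miRNAs, with a pooled SD of 0.47 on the log2 scale. The median over all tested miRNAs was 0.21, and 89.3% of them had a smaller SD. Without control replicate 3 the log2 fold change was 0.72 (adjusted p = 0.130 from limma), and without control replicate 1 it was 0.14. When the blank subtraction was replaced by limma's normexp correction with the local background of each spot and an offset of 50, it was -0.025. This setting changed the background, the method and the offset together, and by its construction the offset draws fold changes of signals small against it towards 0.

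miR-33a-3p had a log2 fold change of 0.084 (95% interval -0.23 to 0.39, standard error 0.14, adjusted p = 0.876 from limma), a fold of 1.06 with an interval of 0.855 to 1.31. Its log2 level was 4.14 ± 0.19 (SD, n = 3) in controls compared with 4.22 ± 0.17 (SD, n = 3) under TGF-β, and the exact permutation test gave p = 0.6. Its pooled SD of 0.18 was below the median of all tested miRNAs. Of the 3 tested arms this one had the smallest standard error, and its groups differed by less than the spread within them. Without control replicate 1 the log2 fold change was -0.025.

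For miR-33b-3p the log2 fold change was -0.58 (95% interval -1.14 to -0.015, standard error 0.25, adjusted p = 0.339 from limma), a fold of 0.670 with an interval of 0.453 to 0.989. Its normalized log2 values were 1.61, 2.00 and 2.23 in controls and 1.03, 1.49 and 1.58 with TGF-β. All TGF-β values thus lay below all control values (exact permutation, 2-sided p = 0.1, the lowest the design allows), with TGF-β replicate 3 close under control replicate 1. Groups that did not overlap were found for 10.1% of the 1457 miRNAs with TGF-β lower and 8.79% with TGF-β higher, and an unadjusted p under 0.05 for 13.7%. The separation was seen only after quantile normalization among the scales examined. The signals above the blank mean were 2.76, 3.73 and 5.47 units in controls and 1.90, 2.99 and 3.01 units with TGF-β. The deposited values were 11, 16 and 18 against 8, 14 and 12, and on both of these scales, as with median or 75th percentile scaling, control replicate 1 lay among the TGF-β arrays. The SD of the blank spots, 0.528 to 0.768 units, was not small against the difference of these signals. Normexp with the local background and the offset of 50, which is large against these signals, gave -0.0037. Without any background correction or offset, so that the blank level stayed in the signals, the log2 fold change was -0.081 for miR-33b-3p and 0.12 for miR-33a-5p.

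**Figure D2:**
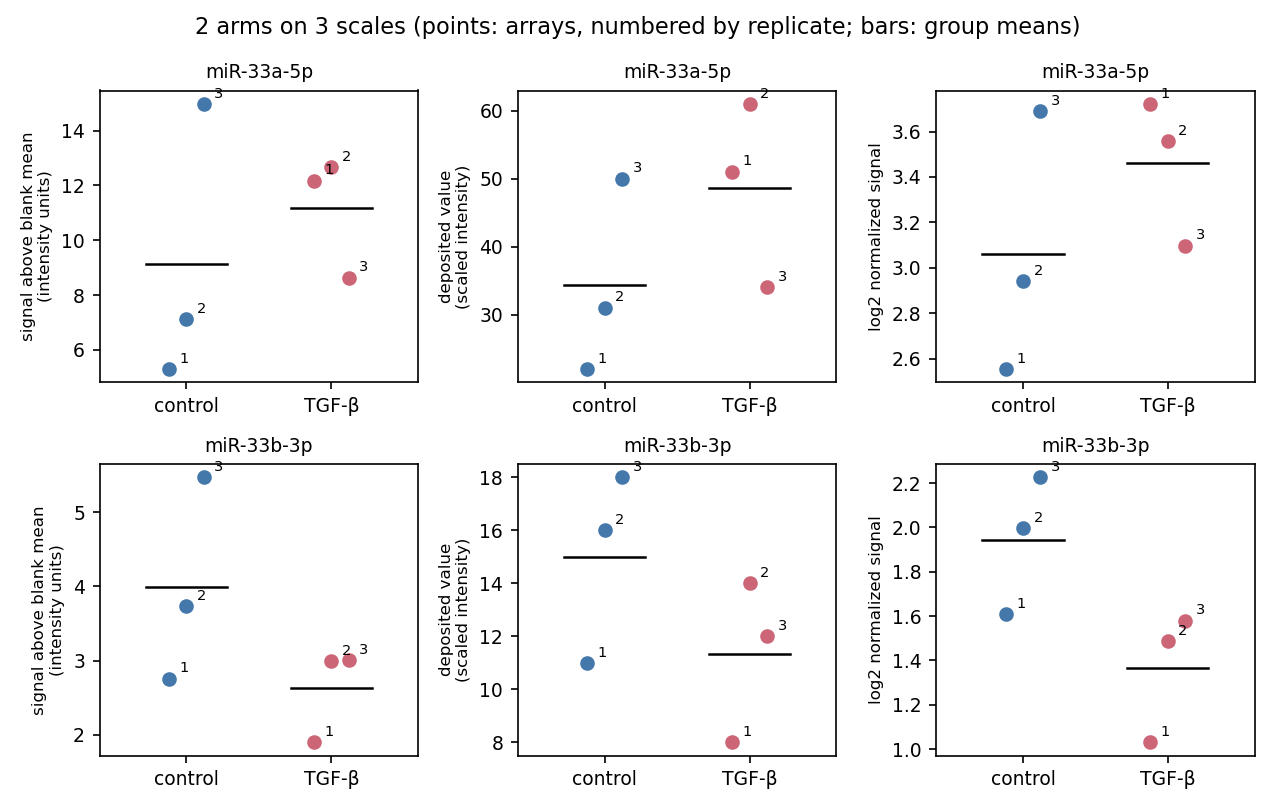
miR-33a-5p (top) and miR-33b-3p (bottom) on 3 scales: signal above the blank mean in intensity units, the deposited scaled intensity, and the log2 normalized signal used in the test. Points are arrays with their replicate number and bars are group means, and the axes do not start at 0. miR-33a-5p overlaps on all 3 scales, and for miR-33b-3p control replicate 1 lies among the TGF-β arrays on the first 2 and above them on the last.

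In the deposited table miR-33a-5p had values of 22, 31 and 50 in controls and 51, 61 and 34 with TGF-β, a ratio of group means of 1.42. miR-33a-3p had 57, 78 and 73 against 71, 104 and 66, a ratio of 1.16. The ratio of miR-33b-3p was 0.756, and miR-33b-5p had a value of 7 on control replicate 2, of 7 on TGF-β replicate 1 and of 5 on TGF-β replicate 2, and none on the other arrays. On this scale the log2 fold changes of all tested miRNAs had a median of 0.11, compared with -0.013 in the quantile normalized values, and those of miR-33a-5p (0.54), miR-33a-3p (0.20) and miR-33b-3p (-0.41) are to be read against that shift.

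Whether the arms changed unequally was examined for 4 pairs from the difference of their log2 values on the same array, in which a scale factor of the array cancels, though quantile normalization is more than such a factor. The difference between miR-33a-5p and miR-33a-3p, arms of the same hairpin, was -1.36, -1.33 and -0.52 in controls and -0.52, -0.82 and -0.94 with TGF-β. It moved by 0.31 (exact permutation test, 2-sided p = 0.3, adjusted p = 0.6 over the 4 pairs), and the groups overlapped. It was 0.16 without control replicate 1, 0.19 without control replicate 2 or TGF-β replicate 1, and 0.60 without control replicate 3, and -0.073 with normexp, the local background and the offset of 50. The difference between the passenger strands miR-33a-3p and miR-33b-3p was 2.31, 2.28 and 1.99 in controls and 3.21, 2.89 and 2.46 with TGF-β. It moved by 0.66 without overlap (exact permutation test, 2-sided p = 0.1, adjusted p = 0.4), where this design allows no pair a smaller p. How many pairs among all miRNAs do not overlap was not counted, and miR-33b-3p was only 1.90 to 5.47 units above the blank mean. The movement was above 0 under each of the 14 alternatives run for this pair. It ran from 0.052 with normexp, the local background and the offset of 50 to 0.86 without TGF-β replicate 3, and was 0.12 without background correction. The pairs with miR-33b-5p rest on its values at or near the floor and were not tested. The difference moved by 0.31 for miR-33a-5p minus miR-33b-5p and by 0.67 for miR-33b-5p minus miR-33b-3p. The first was -0.054 without control replicate 2, 0.78 without control replicate 3 and 1.09 with the deposited values. The second, with an array left out, ran from 0.29 without TGF-β replicate 1 to 0.95 without control replicate 2. It was 0.15 without background correction and 0.0011 with normexp, the local background and the offset of 50. Neither thus had a settled size, nor the first a settled sign.

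Across the 6 arrays, which fall into 2 groups, the log2 values of miR-33a-5p and miR-33a-3p had a Pearson correlation of 0.71, a description for which no test is given. Those of miR-33b-3p had 0.0079 with miR-33a-3p and -0.16 with miR-33a-5p. Among the 1281 other miRNAs detected on all 6 arrays, the ones most like miR-33a-5p were miR-590-5p (r = 0.96), miR-32-5p (0.95) and miR-136-5p (0.93), with log2 fold changes of 0.12, 0.18 and 0.60 and adjusted p of 0.763, 0.786 and 0.253 from limma. GC contents of these 3 were 36.4%, 31.8% and 34.8%, below the median of 52.2% for the array, as was that of miR-33a-5p. Those most like miR-33a-3p were miR-7155-5p (0.96), miR-936 (0.93) and miR-660-3p (0.93), and those most like miR-33b-3p were miR-320b, miR-412-3p (0.98 each) and miR-3194-3p (0.97). With 6 arrays and this many miRNAs compared, high values of r also arise without any relation, and these names are a description.

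The seed of miR-33b-3p was shared by miR-515-3p and miR-519e-3p, both encoded on chromosome 19, which are shown for the shared capitals.
miR-33b-3p: cAGUGCCUcggcagugcagccc
miR-515-3p: gAGUGCCUucuuuuggagcguu
miR-519e-3p: aAGUGCCUccuuuuagaguguu
miR-515-3p and miR-519e-3p were each detected on 2 of the 6 arrays and did not pass the filter. miR-515-3p gave 18.2, 20.2 and 22.3 units in controls and 21.0, 19.95 and 20.9 units with TGF-β, and miR-519e-3p gave 19.6, 19.0 and 21.8 units against 22.9, 19.5 and 20.3. Their detected signals did not fall on the same arrays throughout. Among the array miRNAs matched to RefSeq, miR-33b-3p was the only one of this seed group detected on all arrays.

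miRNAs from the surroundings of the miR-33 genes were next examined. Besides the members, 3 miRNAs of the array come from genes within 500 kb of MIR33A or MIR33B, and all 3 were tested. miR-6777-5p, from the same host gene as miR-33b, is shown with its partner because the pair comes from SREBF1 itself, with the seeds in capitals.
miR-6777-5p: aCGGGGAGucaggcaguggugga
miR-6777-3p: uCCACUCUccuggcccccag
miR-6777-5p had signals of 125, 143 and 178 units in controls and 110, 170 and 134 units with TGF-β, and a log2 fold change of -0.14 (95% interval -0.41 to 0.14, standard error 0.13, adjusted p = 0.714 from limma). miR-6777-3p had signals of 27.7 to 34.3 units over the arrays and a log2 fold change of -0.085 (95% interval -0.37 to 0.20, adjusted p = 0.863 from limma), which was 0.035 with the deposited values. Both arms were at least 13.9 SDs above the blank mean on every array and overlapped between the groups. miR-378i, whose gene lies 22209 bp beyond MIR33A and outside SREBF2, had a log2 fold change of -0.11 (95% interval -0.30 to 0.082, adjusted p = 0.652 from limma). With an array left out, miR-6777-5p ran from -0.27 without TGF-β replicate 2 to -0.056 without TGF-β replicate 1. On the same basis miR-6777-3p ran from -0.14 to -0.051 and miR-378i from -0.17 to -0.058. With normexp, the local background and the offset of 50, miR-378i was -0.35, miR-6777-5p -0.42 and miR-6777-3p -0.037. The median of the 3 was -0.11, compared with -0.013 for all tested miRNAs, and 0 of 3 passed the threshold in limma, as 0 of 3 had an unadjusted p under 0.05. With shares of 3.98% and 13.7% among all tested miRNAs, 0 of 3 says little.

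A list of 15 miRNAs described as acting on cholesterol efflux, as miR-33 does, mostly through ABCA1, had 13 tested members. Of these, 2 were lower, 0 were higher and 11 did not pass the threshold, compared with 1.37% lower and 2.61% higher among all tested miRNAs, with a median log2 fold change of -0.0087 compared with -0.013 for all tested miRNAs. miR-10b-5p, which lies within a HOX gene cluster and is known for its part in invasion, was lower by a log2 fold change of -0.39 (limma adjusted p = 0.0025, standard error 0.057), with signals of 1201, 1423 and 1624 units in controls and 981, 1235 and 1121 units with TGF-β. These scanner signals overlapped, and the normalized values did not. miR-26a-5p, which comes from introns of CTDSP genes, was lower by a log2 fold change of -0.23 (limma adjusted p = 0.0497, standard error 0.055). These calls did not hold throughout. Both were made under 4 of the 21 alternatives and fewer under 17. miR-26a-5p kept its call under 4 alternatives and miR-10b-5p under 14. miR-26a-5p lost its call when any one of the 6 arrays was left out (adjusted p of 0.0560 without TGF-β replicate 1 to 0.190 without TGF-β replicate 2), and both lost it with median scaling. There miR-10b-5p was at -0.33 (limma adjusted p = 0.119), close to its reported size, and miR-26a-5p at -0.12 (limma adjusted p = 0.699). With the deposited values miR-10b-5p was -0.22 (limma adjusted p = 0.876) and miR-26a-5p -0.016. The call of miR-10b-5p was also lost without normalization (adjusted p = 0.672) and without the trend (adjusted p = 0.140) in limma, and in the methods' t-test (adjusted p = 0.0583). With normexp, the local background and the offset of 50, miR-10b-5p was 0.26, with a standard error of 1.41. Of the other miRNAs with the smallest p, miR-758-3p had 0.30 (adjusted p = 0.0919 from limma) and miR-19b-3p had 0.16 (adjusted p = 0.15 from limma, and -0.33 with normexp, the local background and the offset).

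A second list, of 14 miRNAs described as acting on SREBP, lipoprotein uptake or lipid metabolism or lying in introns of metabolic genes, had 12 tested members, of which 0 passed the threshold in limma and 0 had an unadjusted p under 0.05. Among all tested miRNAs these shares were 3.98% and 13.7%, so that counts of 0 among 12 are not a result about the list. Their median log2 fold change was 0.042. The smallest p were those of miR-183-5p (log2 fold change 0.52, adjusted p = 0.427 from limma), which is encoded with miR-96 and miR-182 and was close to the background with 22.1 to 27.9 units, and of miR-30c-5p (-0.14, adjusted p = 0.446), miR-370-3p (0.15, adjusted p = 0.555) and miR-378a-3p (-0.13, adjusted p = 0.583). With an array left out, miR-183-5p ran from 0.29 to 0.77 and miR-30c-5p from -0.19 to -0.057. miR-378a-3p comes from PPARGC1B, a host gene of energy metabolism. miR-103a-3p and miR-107, from introns of pantothenate kinase genes, had values of -0.00066 and -0.059.

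**Figure D3:**
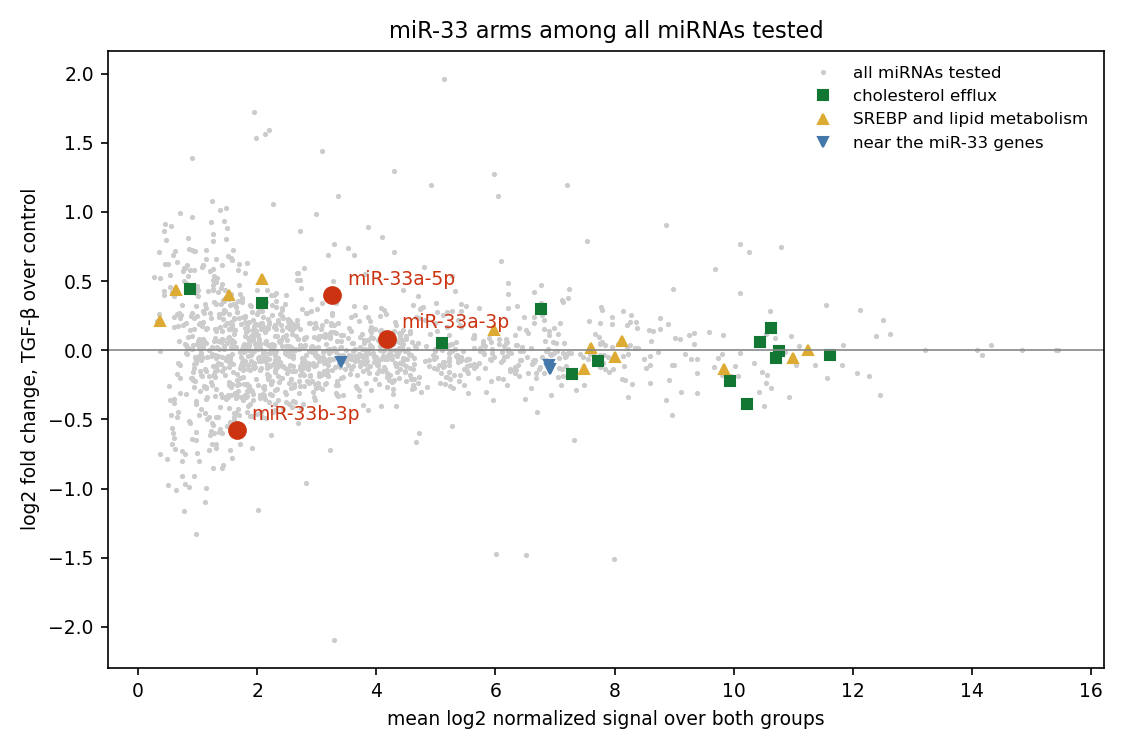
Log2 fold change of TGF-β over control against the mean log2 normalized signal for the 1457 miRNAs tested (grey), with the 3 tested miR-33 arms (red circles), the cholesterol efflux list (green squares), the SREBP and lipid metabolism list (yellow triangles) and the miRNAs near the miR-33 genes (blue triangles). The 3 arms lie among the grey points, with miR-33b-3p below 0 and the miR-33a arms above it.

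**Figure D4:**
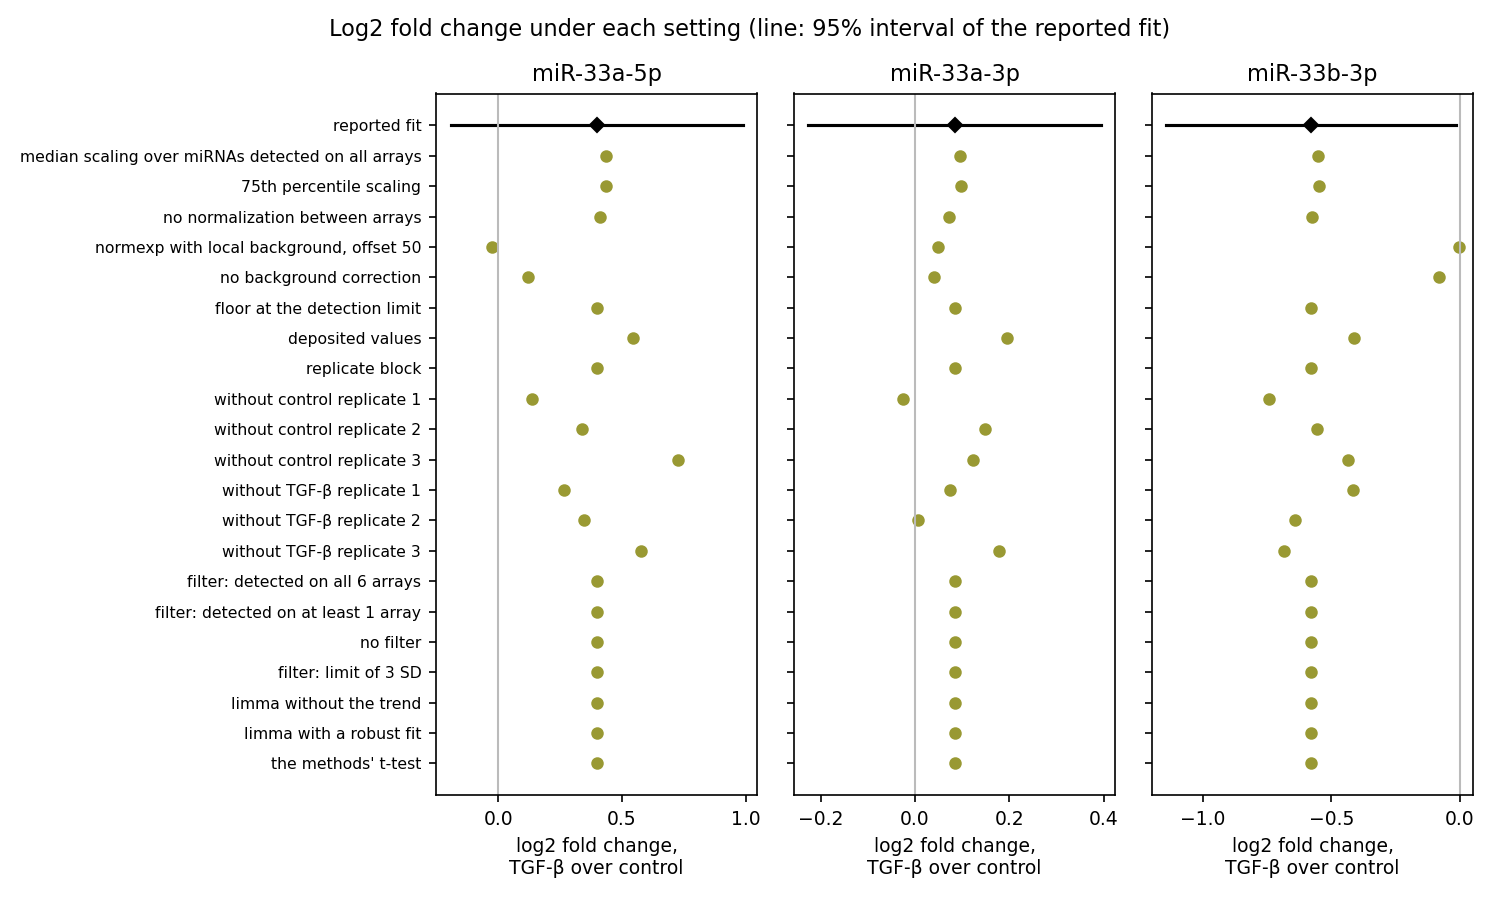
Log2 fold change of the 3 tested arms in the reported fit (diamond, with its 95% interval as a line) and under each of the 21 other settings (circles), on an axis of its own per arm. miR-33b-3p was below 0 under every setting, and miR-33a-5p and miR-33a-3p were each below 0 under 1.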

How the data were processed

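Total RNA was labelled with Cy5 and hybridized in 1 colour to 6 miRNA arrays. The authors deposited scanner intensities (median signal and local background of 3200 spots, linear, not normalized), and processed intensities whose method is not given in the sources used here. The latter were rebuilt within rounding: the mean of the blank spots (5% trimmed at each end) was subtracted and each array scaled to a median of 25 over its detected miRNAs.

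Here the blank mean was subtracted, the 3 miRNA spots with a flag were set as missing, miRNA probes were quantile normalized, values under 1 were set to 1, and log2 values were fitted with limma 3.58.1 (lmFit, eBayes with trend) in R 4.3.3. This background was chosen over normexp on the local background (offset 50) because the local background rose with the signal: on spots above 200 units its median ratio to the signal was 0.434 to 0.995. Benjamini-Hochberg adjustment was over 1457 miRNAs. The number of arrays limits the precision. The procedure was also run on simulated data, with added changes larger than the fold changes of the miR-33 arms, so that the run does not bear on arms like these. Sequences and gene positions were from RefSeq on GRCh38.p14. Plots were made with matplotlib 3.10.9 under Python 3.11.15.

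The members and lists were chosen with earlier results of these data known. Named miRNAs were the members, those inside SREBF1 or SREBF2 or with a member's seed, the 4 smallest p of each list, and the 3 most correlated with each member detected on all arrays. miR-103a-3p, miR-107 and the cell markers were named in addition, and miR-203a, listed without an arm, was given by its 3p arm after its values were seen. Alternatives were other scalings, backgrounds, floors, filters and fits, the deposited values, a block for replicate number, and each array left out.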

Additional observations from a re-analysis of the deposited data

How the results depend on the processing

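No setting brought a tested miR-33 arm past an adjusted p of 0.05: over 21 alternatives it ran from 0.130 to 0.987 for miR-33a-5p, 0.742 to 0.994 for miR-33a-3p and 0.246 to 0.992 for miR-33b-3p. With each array left out, log2 fold changes were 0.14 to 0.72, -0.025 to 0.18 and -0.74 to -0.42, and the value of untested miR-33b-5p was -0.12 to 0.39. With normexp, the local background and an offset of 50, changed together, miR-33a-5p was -0.025, the difference of miR-33a-5p and miR-33a-3p -0.073, miR-10b-5p 0.26, miR-19b-3p -0.33, miR-370-3p -0.079 and miR-378a-3p 0.31. With the deposited values, miR-30c-5p was 0.059, miR-378a-3p 0.0065 and miR-6777-3p 0.035. The causes were not tested. A limit of 3 SD left miR-33b-5p detected on 0 arrays. The 58 calls over all miRNAs became 35 without normalization, 31 with the deposited values, 31 with detection on at least 1 array, 20 without a filter, 31 without the trend, 17 with the methods' t-test, 29 to 52 with an array left out (29 without TGF-β replicate 2, 33 without TGF-β replicate 3), and 0 with normexp, the local background and the offset of 50, where limma gave 35 at an unadjusted p under 0.05. By a ratio below 0.87 or above 1/0.87, with no test, 582 passed. The balance of the limma calls also moved: 38 were higher and 20 lower in the reported fit. These numbers were 37 and 12 with median scaling, 27 and 8 without normalization, and 27 and 4 with the deposited values.

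With the replicate number as a block, 61 miRNAs were called and no call of an arm changed: miR-33a-5p was 0.40 (adjusted p = 0.568 from limma) and miR-33b-3p -0.58 (0.282). Deviations of same-numbered arrays had correlations of 0.13, 0.11 and -0.027 for replicates 1, 2 and 3. Against a limit of 0.1, replicates 1 and 2 were above it and replicate 3 was not. The labels name no pairs, and the numbers were taken as pairs only in this alternative.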
